A study of Homo sapiens with 21 samples.

Results

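The 14-3-3 family was described from the 7 genes whose symbols head its rows in the deposited expression table: YWHAB, YWHAE, YWHAG, YWHAH, YWHAQ, YWHAZ and SFN. They are 7 of the 27142 genes listed. The family was chosen by the FPKM values of YWHAG, which were low in the control hairpin libraries, so differences from those libraries are described below and no p-value is printed for them. The study set short hairpin RNAs (shRNAs), which use the Argonaute pathway of RNA interference, against RfxCasR, an RNA-guided nuclease that cuts RNA, and asked in its title how specific each was. All cells were HEK 293FT, an embryonic kidney cell line of human origin with SV40 large T antigen, and all were transfected with plasmids by lipofection and harvested after 48 h.

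There were 7 groups of 3 replicate libraries. Cells with an shRNA received the non-targeting (NT) hairpin, the ANXA4 hairpin or the B4GALNT1 hairpin, and no nuclease. Cells with RfxCasR received the NT gRNA, the B4GALNT1 gRNA, the NT array or the ANXA4 array, an array being several guides expressed together. Each group had its own hairpin, guide or array in 1 cell line, and method, plasmid and target sequence cannot be told apart between groups. No untransfected cells are among the groups. The labels say that replicates are biological but not how they were grown, and p-values here measure only the spread between these libraries. In bulk RNA, fewer cells expressing a gene and less RNA per cell cannot be told apart.

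ANXA4 contradicted the array labels: FPKM (fragments per kilobase of exon per M reads) averaged 3.03 ± 0.427 (SD, n = 3) under the NT array label and 7.03 ± 0.240 under the ANXA4 array label. They are named below as labelled. In the other groups the targeted gene was below its own control: ANXA4 was at 2.40 FPKM with its shRNA against 5.90 with the NT shRNA, and B4GALNT1 was at 2.78 against 4.08 with shRNAs and at 2.21 against 5.89 with gRNAs. The array libraries were deeper, with 34.7 to 39.5 M recovered reads against 21.4 to 30.7 M elsewhere. Of 10 genes listed as typical of this cell line, 8 were at 1 FPKM or more in all libraries, and SALL4 (0.407 to 1.145 FPKM) and PAX2 (0.186 to 1.316) were low. All 3 endothelial markers and 3 of 4 blood markers stayed under 1 FPKM in all libraries, while the summed level of 4 fibroblast markers, of which COL1A1 and COL3A1 were at 1 FPKM or more throughout, was 7.54 to 15.0 FPKM.

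The 14-3-3 proteins are small acidic proteins that pair into homodimers and heterodimers and bind partner proteins at phosphorylated serine or threonine. Binding hides a localization signal, holds an enzyme in one state or keeps a partner in the cytoplasm, and the partners include CDC25 phosphatases, FOXO factors, YAP1 and TSC2. YWHAB, YWHAE, YWHAG, YWHAH, YWHAQ and YWHAZ encode the beta, epsilon, gamma, eta, theta and zeta proteins, which most tissues make. SFN encodes sigma (stratifin), best known from stratified epithelium, which mostly pairs with itself.

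The promoters of the most contrasting members are shown because YWHAG turns the comparison and SFN is the one member close to the lower limit of measurement. Each is the stretch of 250 bases before the RefSeq transcription start in GRCh38.p14, 5′ to 3′ on the strand of the gene, with every CG dinucleotide in capitals. YWHAG lies at chr7:76358992-76359241 on the minus strand and SFN at chr1:26862899-26863148 on the plus strand.
YWHAG: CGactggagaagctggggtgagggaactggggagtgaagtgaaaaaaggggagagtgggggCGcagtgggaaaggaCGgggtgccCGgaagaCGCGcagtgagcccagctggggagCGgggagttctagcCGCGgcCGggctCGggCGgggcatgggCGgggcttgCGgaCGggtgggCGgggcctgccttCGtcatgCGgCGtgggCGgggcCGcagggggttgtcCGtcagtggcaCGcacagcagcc
SFN: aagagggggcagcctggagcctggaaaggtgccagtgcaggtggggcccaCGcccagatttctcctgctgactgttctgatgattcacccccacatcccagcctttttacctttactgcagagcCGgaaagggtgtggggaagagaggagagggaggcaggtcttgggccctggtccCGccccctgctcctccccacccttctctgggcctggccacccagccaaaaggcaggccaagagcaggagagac

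The YWHAG stretch held 23 CG dinucleotides and the SFN stretch 3, where the median of 35116 RefSeq promoter stretches of this length was 11. RefSeq gave a stretch for 6 members. YWHAB had 21, YWHAQ 28, YWHAE 29 and YWHAH 34 CG dinucleotides, so all 5 of the abundant members with an entry were above the median and SFN was below it. The letters GGGCGG, the core of a GC box, were found on either strand in all 6 members and in 42.6% of all stretches. The letters TATAAA were found on either strand in YWHAH alone of the 6, and in 10.7% of all stretches. These are matches of letters, not sites of binding.

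YWHAG (NM_012479, hg19 chromosome 7, 75956108 to 75988342, minus strand) was at 54.6, 51.1 and 52.0 FPKM in the NT shRNA libraries. It was at 107.3, 102.9 and 103.5 FPKM with the ANXA4 shRNA and at 99.6, 98.9 and 97.9 with the B4GALNT1 shRNA. The 3 NT shRNA libraries were thus far below both targeting hairpins, and the ANXA4 libraries were all above the B4GALNT1 libraries. With RfxCasR it was at 94.7, 93.3 and 93.0 FPKM with the NT gRNA and at 94.3, 90.4 and 95.2 with the B4GALNT1 gRNA. In the libraries labelled NT array it was at 89.2, 86.7 and 92.3 FPKM, and in those labelled ANXA4 array at 90.3, 87.4 and 87.1. The other 18 libraries together ran from 86.7 to 107.3 FPKM with a median of 93.8, and none came near the NT shRNA level.

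The group means ordered YWHAG from the NT shRNA (52.6 ± 1.83 FPKM, SD, n = 3), through ANXA4 array (88.3 ± 1.75), NT array (89.4 ± 2.80), B4GALNT1 gRNA (93.3 ± 2.54) and NT gRNA (93.7 ± 0.861), to B4GALNT1 shRNA (98.8 ± 0.842) and ANXA4 shRNA (104.6 ± 2.40). Neighbours among the 4 RfxCasR groups overlapped in their libraries. The NT shRNA below them, the B4GALNT1 shRNA above them and the ANXA4 shRNA above that did not overlap their neighbour in this order. On the log2(FPKM + 1) scale used for all differences, which understates the change of low genes, YWHAG was above the NT shRNA by 0.98 (SE 0.032) with the ANXA4 shRNA, by 0.90 (SE 0.032) with the B4GALNT1 shRNA and by 0.82 (SE 0.032) with the RfxCasR NT gRNA. All 3 differences share the same NT shRNA libraries. The authors' deposited tables give 1.001 and 0.953 log2 for YWHAG in the ANXA4 and B4GALNT1 shRNA comparisons.

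The summed level of the 10 genes typical of the cell line moved the same way, at 572 to 592 FPKM in the NT shRNA libraries and 747 to 905 in the others. Most of that sum was VIM (388.1 to 681.8 FPKM over all libraries), and the 10 genes were not set out singly by group. The part of the sum in the YWHAG difference was not tested. Many other genes also differed: between the ANXA4 and NT shRNAs 51.8% of all 13679 genes tested were called (adjusted p under 0.05), for the B4GALNT1 and NT shRNAs 44.4%, and for the NT gRNA and NT shRNA 48.9%. The span of YWHAG over the 7 group means, 0.98 log2, ranked 1101 among the genes tested. The genes next to YWHAG on the chromosome were not lowest there. HSPB1, a small heat shock protein gene 22494 bases away, was at 74.6 ± 2.85 FPKM with the NT shRNA, at 65.9 ± 1.93 with the ANXA4 shRNA and at 92.5 ± 3.06 with the B4GALNT1 shRNA (n = 3 each). SSC4D, 30304 bases away on the other side, was under 1 FPKM in every group.

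**Figure D1:**
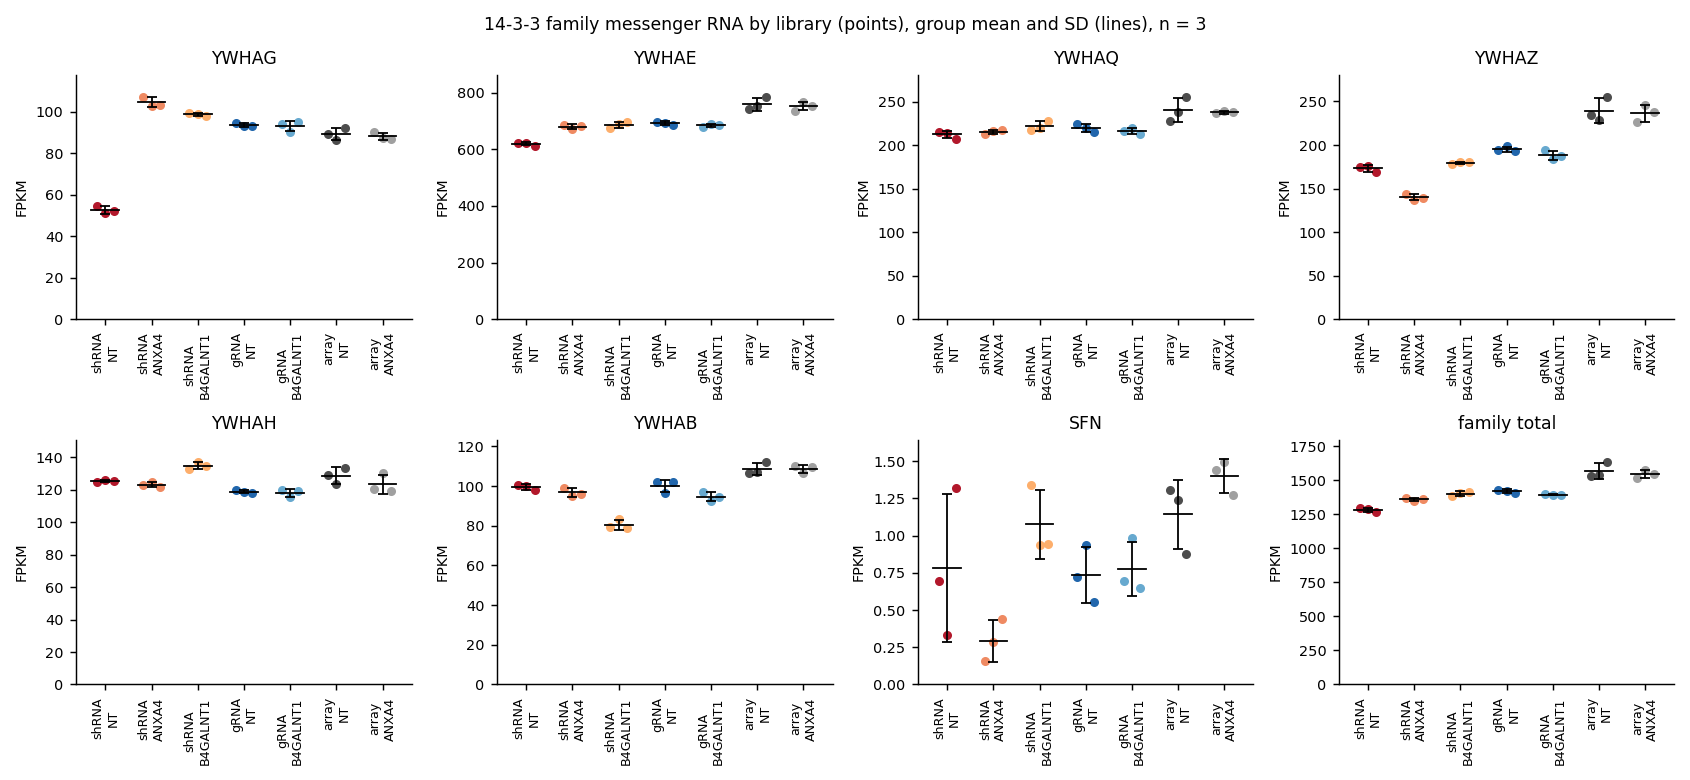
FPKM of each of the 7 members and of their sum (y axes, linear from 0, each with its own range) in the 7 groups (x axis). Points are libraries and lines are group means with SD (n = 3). YWHAG stands at 51.1 to 54.6 FPKM in the NT shRNA libraries and at 86.7 FPKM or more in all others.

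YWHAZ (NM_001135700, hg19 chromosome 8, 101930804 to 101963560, minus strand), the zeta protein and a common heterodimer partner, had its low group elsewhere. It was at 143.9, 137.4 and 138.9 FPKM with the ANXA4 shRNA, at 175.0, 175.9 and 169.0 with the NT shRNA and at 178.6, 180.0 and 180.6 with the B4GALNT1 shRNA. The ANXA4 shRNA libraries were below every other library. It was at 194.0, 198.4 and 193.3 FPKM with the NT gRNA and at 193.9, 183.4 and 187.6 with the B4GALNT1 gRNA. The libraries labelled NT array were at 234.4, 228.7 and 255.4 FPKM and those labelled ANXA4 array at 226.5, 245.7 and 237.8, above all others. YWHAZ therefore spanned 1.71-fold between its lowest and highest group means, against 1.99-fold for YWHAG.

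YWHAB (NM_139323, hg19 chromosome 20, 43514240 to 43537175, plus strand), the beta protein, was low with the other targeting hairpin. It was at 79.2, 83.5 and 78.8 FPKM with the B4GALNT1 shRNA, at 100.7, 99.8 and 98.02 with the NT shRNA and at 99.2, 94.996 and 96.2 with the ANXA4 shRNA. The B4GALNT1 shRNA libraries were below all 18 others, of which the lowest was at 92.3 FPKM. It was at 101.9, 96.6 and 101.8 FPKM with the NT gRNA and at 97.0, 92.3 and 94.7 with the B4GALNT1 gRNA. The array libraries were the highest, at 106.7, 107.1 and 112.1 FPKM under the NT label and 109.9, 106.5 and 109.5 under the ANXA4 label. So the lowest group was the NT shRNA for YWHAG, the ANXA4 shRNA for YWHAZ and the B4GALNT1 shRNA for YWHAB.

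YWHAE (NM_006761, hg19 chromosome 17, 1247834 to 1303556, minus strand), the epsilon protein and a frequent heterodimer partner, was the most abundant member in 21 of 21 libraries. It was at 623.3, 620.8 and 613.1 FPKM with the NT shRNA, below the other 18 libraries, which ran from 670.4 to 785.2. The next groups were close together: 679.6 ± 8.37 FPKM (SD, n = 3) with the ANXA4 shRNA, 683.9 ± 4.54 with the B4GALNT1 gRNA, 686.7 ± 10.6 with the B4GALNT1 shRNA and 691.2 ± 6.79 with the NT gRNA, with overlapping libraries between neighbours. The libraries labelled ANXA4 array (751.7 ± 14.9) and NT array (759.6 ± 23.0) were above them. YWHAE thus shared with YWHAG its lowest group, but at a smaller difference from the NT shRNA of 0.13 to 0.16 log2 (SE 0.025) over the ANXA4 shRNA, B4GALNT1 shRNA and NT gRNA.

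YWHAQ (NM_006826, hg19 chromosome 2, 9724096 to 9771184, minus strand), the theta protein first studied in T cells, varied least, from 212.5 ± 4.35 FPKM (n = 3) with the NT shRNA to 240.7 ± 14.03 in the libraries labelled NT array. YWHAH (NM_003405, hg19 chromosome 22, 32340479 to 32353590, plus strand), the eta protein, known from nervous tissue, ran from 118.0 ± 2.34 FPKM with the B4GALNT1 gRNA to 134.8 ± 2.09 with the B4GALNT1 shRNA. In YWHAQ and YWHAH the NT shRNA libraries (207.5 to 215.4 and 124.6 to 126.1 FPKM) overlapped those of at least 1 other group. YWHAH overlaps C22orf24 on the other strand, and per the file headers reads were counted on the sense strand.

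SFN (NM_006142, hg19 chromosome 1, 27189633 to 27190947, plus strand) was near the lower limit. It was at 0.692, 0.335 and 1.319 FPKM with the NT shRNA, at 0.155, 0.286 and 0.438 with the ANXA4 shRNA and at 1.343, 0.940 and 0.947 with the B4GALNT1 shRNA. The NT shRNA libraries overlapped both others. It was at 0.556 to 0.983 FPKM in the single-guide libraries and at 0.879 to 1.494 in the array libraries. SFN passed the filter of 1 FPKM in 3 libraries only through groups where it was high. The markers of stratified epithelium KRT5, KRT14 and TP63 summed to at most 0.048 FPKM in any library.

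FPKM is a level per length, so members can be set in order. YWHAE was followed by YWHAQ, which was above YWHAZ in 18 of 21 libraries, the exceptions all being array libraries. YWHAZ was above YWHAH and YWHAH above YWHAB in 21 of 21. YWHAB was above YWHAG in 14 of 21, the exceptions being the 6 libraries of the 2 targeting shRNAs and 1 B4GALNT1 gRNA library. SFN was lowest in all 21.

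The family total, the sum of the 7 FPKM values, was 1283 ± 14.9 FPKM (n = 3) with the NT shRNA, 1360 ± 13.4 with the ANXA4 shRNA and 1403 ± 16.9 with the B4GALNT1 shRNA. It was 1420 ± 13.8 FPKM with the NT gRNA and 1395 ± 5.45 with the B4GALNT1 gRNA. In the libraries labelled NT array it was 1568 ± 58.4 FPKM, and in those labelled ANXA4 array 1548 ± 27.4. The NT shRNA libraries were lowest and the array libraries highest. No test was made of this sum, because the members were chosen with results known.

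YWHAG made up 4.10% of the total with the NT shRNA and 5.70% to 7.69% in the other groups, while YWHAE made up 48.3% to 49.97% in all 7. With YWHAG left out, the sum was still lowest with the NT shRNA, at 1230 FPKM, but the ANXA4 shRNA was close to it at 1255. The total was 6.01% higher with the ANXA4 shRNA than with the NT shRNA, and 2.04% higher without YWHAG. The difference of 77.1 FPKM was made of 60.5 from YWHAE, 52.0 from YWHAG and -33.2 from YWHAZ, with the other members within ± 3.04 FPKM. With the B4GALNT1 shRNA the total was 9.37% above the NT shRNA and 6.01% without YWHAG, where YWHAE gave 67.7, YWHAG 46.3 and YWHAB -19.0 FPKM. With the NT gRNA it was 10.7% above, and 7.77% without YWHAG, where YWHAE gave 72.2, YWHAG 41.1 and YWHAZ 21.9 FPKM. In each of these 3 cases YWHAE, not YWHAG, was the largest part of the difference in the total.

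**Figure D2:**
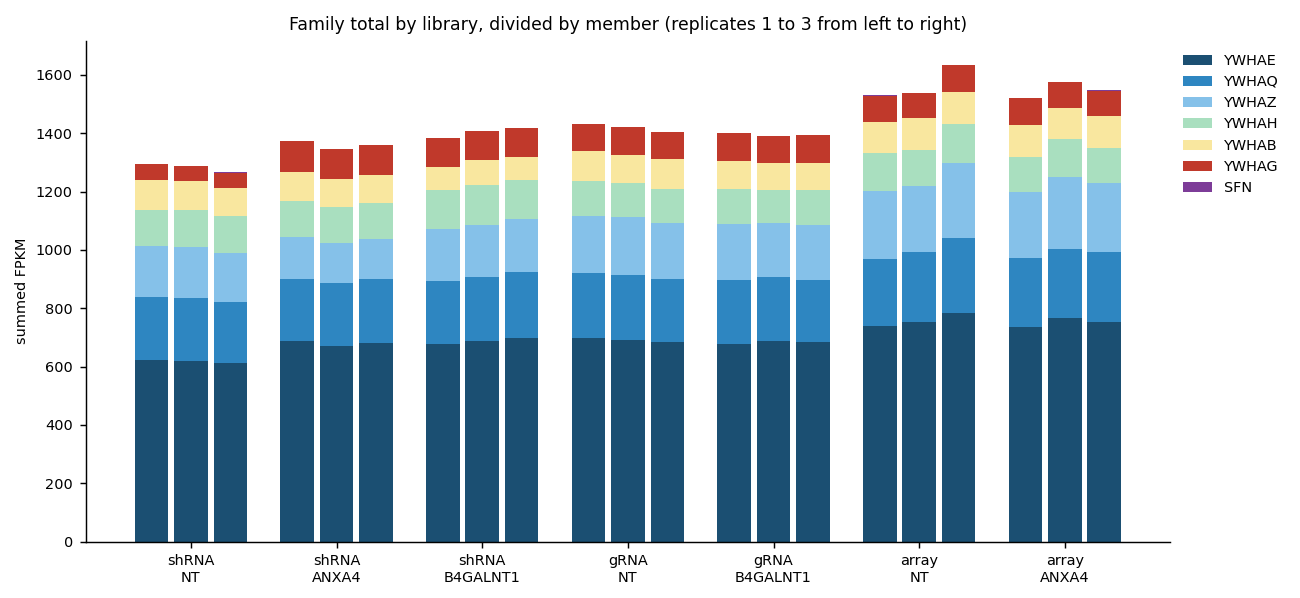
Summed FPKM (y axis, linear from 0) of each library, 1 stacked bar per replicate in the 7 groups (x axis), with a layer for each member. YWHAE fills the lowest layer (group means of 48.3% to 49.97% of the total), the YWHAG layer is thinnest with the NT shRNA (4.10%), and SFN is too thin to be seen.

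Counts of members in the comparisons with the NT shRNA describe the choice of the family and nothing is read from them. With the ANXA4 shRNA the count was 4 of 7, SFN included, where 51.8% of all genes were called (25.6% higher and 26.3% lower). With the B4GALNT1 shRNA it was 4 of 7, where 44.4% of all genes were called (18.4% higher and 26% lower). With the NT gRNA it was 3 of 7, where 48.9% of all genes were called (22.4% higher and 26.5% lower). Libraries did not overlap for 3, 6 and 4 of the 7 members in these comparisons, against 60.9%, 55.5% and 60.7% of all genes. The difference of YWHAZ from the NT shRNA was -0.31 log2 (SE 0.038) with the ANXA4 shRNA and 0.17 log2 (SE 0.038) with the NT gRNA, and that of YWHAB was -0.30 log2 (SE 0.032) with the B4GALNT1 shRNA. Among all genes called, 41.5% were higher with the B4GALNT1 shRNA and 45.9% with the NT gRNA, and 53.3% and 56.4% once every library was centred on its own median.

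The tests that follow set no group against the NT shRNA libraries, which entered only the shared estimate of spread. They compared the 2 targeting hairpins with each other, each of them with the RfxCasR NT gRNA, and the RfxCasR groups among themselves, and the comparisons that name the NT gRNA share those libraries. Between the targeting shRNAs, 4 of the 6 members other than SFN were called, 2 higher and 2 lower, where 46.7% of all genes were (27.1% higher and 19.6% lower). Libraries did not overlap for these 4, where 56.4% of all genes did not. YWHAZ was lower with the ANXA4 than with the B4GALNT1 shRNA by 22.1% (-0.36 log2, SE 0.038, limma adjusted p = 2.64e-07). YWHAB was higher with the ANXA4 shRNA, at 96.8 ± 2.19 against 80.5 ± 2.58 FPKM (0.26 log2, SE 0.032, limma adjusted p = 1.86e-06), and YWHAH lower (-0.13 log2, limma adjusted p = 0.0036). YWHAZ, YWHAB and YWHAH thus separated the 2 hairpins in both directions. SFN, which had passed the filter only through groups where it was high and is not counted here, was at 0.293 ± 0.142 and 1.08 ± 0.231 FPKM, a difference of -0.68 log2 (SE 0.157).

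YWHAG itself was higher with the ANXA4 than with the B4GALNT1 shRNA by 0.081 log2 (95% interval 0.014 to 0.15, limma adjusted p = 0.0445). This call was lost whichever of the 6 libraries was left out (adjusted p = 0.0505 to 0.174). It was also lost after centring on the median (0.040 log2, limma adjusted p = 0.334) and with voom on the recovered reads (0.049 log2, adjusted p = 0.267). YWHAE and YWHAQ did not pass the test, at -0.015 log2 (95% interval -0.067 to 0.037) and -0.040 (-0.11 to 0.032). Of all genes called, 58.0% were higher with the ANXA4 shRNA, and 48.0% after centring.

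Against the RfxCasR NT gRNA, the targeting hairpins can be placed without the control that chose YWHAG, although method and target differ together. With the ANXA4 shRNA, 2 members other than SFN were called, 1 higher and 1 lower, where 54% of all genes were (29% higher and 25% lower). Apart from SFN, libraries did not overlap for YWHAG, YWHAH and YWHAZ, where 63.7% of all genes did not. YWHAZ was lower by 28.3%, at 140.1 ± 3.38 against 195.2 ± 2.72 FPKM (-0.48 log2, SE 0.038, limma adjusted p = 5.98e-09). YWHAG was higher by 11.6%, at 104.6 ± 2.40 against 93.7 ± 0.861 FPKM (0.16 log2, SE 0.032, limma adjusted p = 0.000404), and the libraries of the groups did not overlap for either gene. SFN, which had passed the filter only through groups where it was high and is not counted here, differed by -0.43 log2 (SE 0.157). YWHAB, YWHAE, YWHAH and YWHAQ did not pass, with differences of -0.048 to 0.050 log2, but YWHAB passed after centring on the median (-0.086 log2, limma adjusted p = 0.0403).

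Cells with the B4GALNT1 shRNA had 3 members other than SFN called against the NT gRNA. Of these 1 was higher and 2 lower, where 40.9% of all genes were called (19.4% higher and 21.5% lower). Apart from SFN, libraries did not overlap for YWHAB, YWHAG, YWHAH and YWHAZ, where 54.4% of all genes did not. YWHAB, at 80.5 ± 2.58 FPKM, was 19.6% below the 100.1 ± 3.02 FPKM of the NT gRNA (-0.31 log2, SE 0.032, limma adjusted p = 4.64e-07). YWHAH was higher by 13.3%, at 134.8 ± 2.09 against 118.9 ± 1.16 FPKM (0.18 log2, SE 0.033, limma adjusted p = 0.000285). YWHAZ was lower by 7.95% (-0.12 log2, limma adjusted p = 0.0168), a call lost without the first B4GALNT1 shRNA library (adjusted p = 0.05002) or the second NT gRNA library (0.0628). YWHAG was at 98.8 ± 0.842 against 93.7 ± 0.861 FPKM, a difference of 0.076 log2 (95% interval 0.0092 to 0.14) that did not pass (limma adjusted p = 0.0647). It passed with only the groups compared (adjusted p = 0.0366), without the array libraries (0.0452), with a replicate block (0.0388) and with voom (0.10 log2, 0.0209).

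Between the B4GALNT1 and NT gRNAs with RfxCasR, 0 of 7 members were called by limma, where 0.00731% of all genes were. YWHAB was at an unadjusted p under 0.05, as 1 of 7 members and 3.82% of all genes were, and voom also called 0 members. YWHAG differed by -0.0062 log2 (95% interval -0.073 to 0.061), YWHAE by -0.015 (-0.067 to 0.036) and YWHAB by -0.080 (-0.15 to -0.012). Libraries overlapped for all 7 members, where they did not overlap for 11.8% of all genes.

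**Figure D3:**
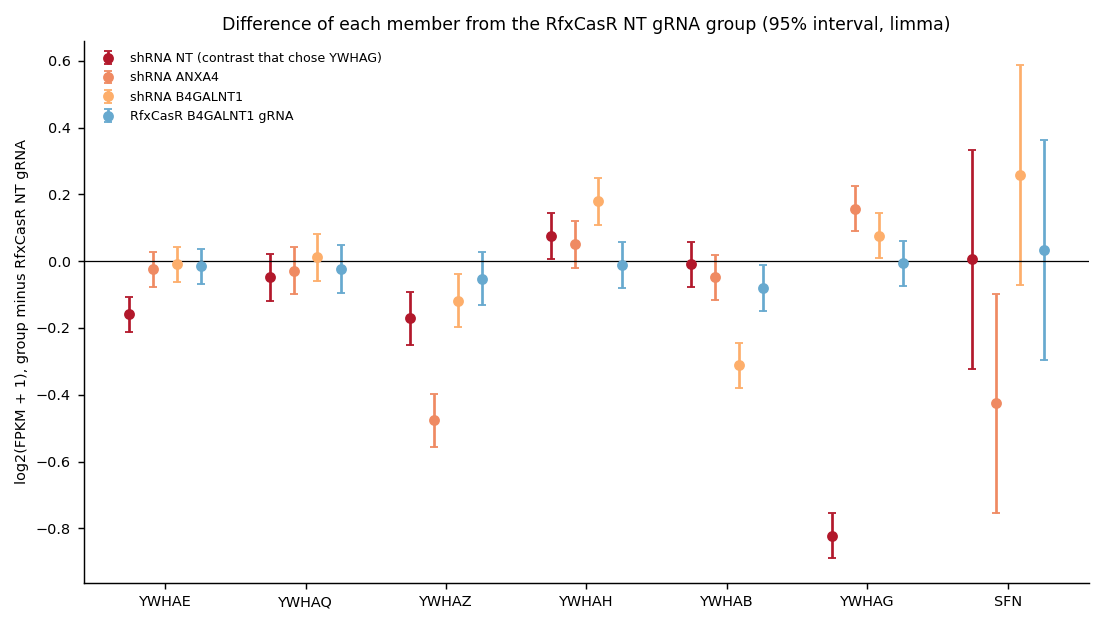
Difference of each member (x axis) from the RfxCasR NT gRNA group on the log2(FPKM + 1) scale (y axis) for the 3 shRNA groups and the B4GALNT1 gRNA group; points are limma estimates and bars 95% intervals. The NT shRNA, the contrast that chose YWHAG, lies 0.82 below for YWHAG, the ANXA4 shRNA stands out for YWHAZ (-0.48) and the B4GALNT1 shRNA for YWHAB (-0.31).

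Between the libraries labelled ANXA4 array and NT array, 0 of 7 members were called by limma, where 0.285% of all genes were. At an unadjusted p under 0.05 there were 0 members and 10.8% of all genes, and voom called 0. Libraries overlapped for all 7 members, where 10.3% of all genes did not overlap. YWHAG differed by -0.018 log2 (95% interval -0.085 to 0.049), and YWHAH had the widest difference of the abundant members at -0.062 (-0.13 to 0.0080). The authors' deposited table gives 0.029 log2 for YWHAG and 0.072 for YWHAH, with an adjusted p of 1, and the signs are the opposite of those from the labelled libraries.

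The 6 array libraries were compared with the 6 single-guide libraries by their group means, which takes both array labels together. The 6 members other than SFN were all called, where 67.8% of all genes were, 5 of them higher in the arrays and 1 lower, where 28.5% of all genes were higher and 39.3% lower. YWHAZ was higher by 24.2% (0.31 log2, SE 0.027, limma adjusted p = 6.31e-09), YWHAB by 0.16 log2 (limma adjusted p = 6.66e-06), YWHAE by 0.14 (1.33e-06) and YWHAQ by 0.13 (7.31e-05). Libraries did not overlap for these 4, where 42.8% of all genes did not. YWHAH was higher too (0.087 log2, limma adjusted p = 0.00301). The difference of SFN was 0.37 log2; it is not counted, since it had passed the filter only through groups where it was high. YWHAG was the one member of these 6 that was lower, by 0.073 log2 (limma adjusted p = 0.00784), and that call was lost after centring (-0.0020 log2, adjusted p = 0.944) and with voom (-0.0074 log2, adjusted p = 0.798). The array libraries were also deeper, at 34.7 to 39.5 M reads, which cannot be told apart from the group. The summed fibroblast markers were at 7.54 to 9.03 FPKM in the array and 12.3 to 15.0 in the single-guide libraries. The summed genes typical of the cell line, mostly VIM, were at 853 to 905 and 793 to 834 FPKM. The part of these in the differences was not tested. Of all genes called, 42.0% were higher in the arrays, and 54.7% after centring.

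Reads of some members can be shared with processed pseudogenes. Of all 50-base words in the GENCODE v29 transcript of each member, 0 of 3701 in YWHAG, 0 of 3000 in YWHAB and 0 of 1271 in SFN were found in a transcript of another gene. The share was 2.13% in YWHAQ, 3.21% in YWHAH, 5.55% in YWHAE and 17.8% in YWHAZ, the last mainly with YWHAZP3, AL627402.1 and YWHAZP5. No member shared such a word with another member. The pseudogene YWHAEP1 was at 1.71 to 5.45 FPKM in the table, against 613.1 FPKM or more for YWHAE. Shared words make the levels of YWHAZ and YWHAE less certain than those of YWHAG and YWHAB. The order of YWHAQ and YWHAZ given above is less certain for the same reason.

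Known binding partners of the family were followed in a list of 51 genes, of which 49 passed the filter. Between the targeting shRNAs 21 of 49 were called (42.9%, against 46.7% of all genes), 13 higher and 8 lower with the ANXA4 shRNA, or 11 and 10 after centring. Before centring 27.1% of all genes were higher and 19.6% lower. TBC1D4, an AKT substrate that controls glucose transporter traffic, was at 10.99 FPKM with the ANXA4 and 24.3 with the B4GALNT1 hairpin (-1.08 log2, limma adjusted p = 2.06e-12). ZFP36L1, an mRNA decay factor (-0.48 log2), and AKT1S1, an inhibitor of mTORC1 (-0.32), were lower too. HDAC5, a class II deacetylase (0.30 log2), CRTC1, a CREB coactivator (0.37), and TSC2, a brake on mTORC1 (0.32), were higher.

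Against the NT gRNA, 32 of 49 partners were called with the ANXA4 shRNA (65.3%, against 54% of all genes). Of the partners called, 23 were higher and 9 lower, or 21 and 12 after centring. The kinase SIK3 was at 9.49 FPKM with the ANXA4 shRNA against 5.23 with the NT gRNA (0.75 log2). CDKN1B, the cell cycle inhibitor p27, was at 36.3 against 24.6 (0.54). TBC1D4 (-1.07 log2), AKT1S1 (-0.56) and ZFP36L1 (-0.61) were lower. With the NT shRNA, CDKN1B was at 36.1 FPKM and AKT1S1 at 39.1, near the 36.3 and 37.5 with the ANXA4 shRNA. TBC1D4 was at 25.8 with the NT shRNA, near the 24.2 with the NT gRNA. Among all genes 29% were higher and 25% lower. Of all genes called, 53.7% were higher, and 45.9% after centring. By role, 8 kinase and signalling genes were higher and 1 lower of 13. Of 13 transcription and chromatin genes 8 were higher and 3 lower, and of 11 cell cycle and apoptosis genes 4 and 1. Of 8 genes of insulin, mTOR and metabolism 2 were higher and 3 lower, and of 4 of messenger RNA decay 1 and 1. With the NT gRNA against the NT shRNA these roles had, in this order, 1 higher and 8 lower, 2 and 7, 3 and 5, 3 and 0, and 1 and 0. With the ANXA4 against the NT shRNA they had 3 higher and 4 lower, 3 and 6, 3 and 2, 3 and 1, and 2 and 1. The counts against the NT shRNA are description only. With the B4GALNT1 shRNA 22 of 49 were called (44.9%, against 40.9% of all genes), 12 higher and 10 lower. Of all genes 19.4% were higher and 21.5% lower in that comparison. CDKN1B (0.60 log2), MARK2, a polarity kinase (0.51), and CDC25A, a cell cycle phosphatase (0.32), were higher. FOXO4 (-0.49), WWTR1, the YAP1 paralog TAZ (-0.32), and AKT1S1 (-0.24) were lower. CDKN1B, at 37.8 FPKM with the B4GALNT1 shRNA, was near its NT shRNA level of 36.1. AKT1S1 was at 46.9 with the B4GALNT1 shRNA and at 39.1 with the NT shRNA. FOXO4 was at 14.5 with the NT shRNA, near the 15.0 with the NT gRNA.

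No partner was called by limma between the gRNAs or between the array labels, where 0.00731% and 0.285% of all genes were. At an unadjusted p under 0.05 there were 2 and 4 of 49, where 3.82% and 10.8% of all genes were. Voom called 0 partners in both. Between array and single-guide libraries 38 of 49 were called (77.6%, against 67.8% of all genes). Of the partners 5 were higher and 33 lower, where 28.5% of all genes were higher and 39.3% lower. The median of the partners was -0.19 log2, where that of all genes was -0.047. After centring 7 were higher and 26 lower. HDAC5 fell from 16.3 to 10.9 FPKM (-0.54 log2) and BCR, a serine/threonine kinase, from 15.9 to 11.1 (-0.48). AKT1S1 (0.44 log2), YAP1, the Hippo pathway coactivator (0.21), and CDC25C, the mitotic phosphatase (0.20), rose.

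In the comparisons with the NT shRNA, 28, 23 and 30 of 49 partners were called with the ANXA4 shRNA, the B4GALNT1 shRNA and the NT gRNA (57.1%, 46.9% and 61.2%, against 51.8%, 44.4% and 48.9% of all genes), which is given as a description. They were 14 higher and 14 lower, 8 higher and 15 lower, and 10 higher and 20 lower. The shares of all genes were 25.6% higher and 26.3% lower, 18.4% and 26%, and 22.4% and 26.5%.

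The genes most like YWHAG were sought over the 21 libraries by Pearson's r of log2(FPKM + 1), among 7235 genes whose group means spanned at least 0.5 log2. Highest were MKRN2 (0.98), LPCAT3 (0.97), SQSTM1 (0.97), FUCA2 (0.97), LHFPL2 (0.97), KLHL12 (0.97), MAP3K7 (0.96) and KPNA3 (0.96). MKRN2 was at 9.99 FPKM with the NT shRNA and at 20.03 to 25.3 in the other groups. SQSTM1, the autophagy receptor p62, was at 20.4 FPKM with the NT shRNA and at 41.7 to 48.7 in the others. MAP3K7, the kinase TAK1, was at 14.2 FPKM with the NT shRNA and at 19.8 to 22.2 in the others. These points share the 3 low NT shRNA libraries, and over the 18 other libraries r was 0.54 (SQSTM1) to 0.87 (LHFPL2).

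The opposite pattern was seen in NEMP1 (r = -0.94), NAPB (-0.93), TRNAU1AP (-0.91) and TCF19 (-0.90), which were highest with the NT shRNA. Over the 18 other libraries r was -0.38 (NAPB) to -0.73 (NEMP1). TCF19 was at 44.9 FPKM there and at 25.3 to 33.1 in the other groups. For the other members of the family r with YWHAG was 0.57 for YWHAE, 0.23 for YWHAQ, -0.011 for YWHAH, -0.018 for YWHAZ, -0.074 for SFN and -0.21 for YWHAB over the 21 libraries. Over the 18 libraries without the NT shRNA it was -0.71 for YWHAE, -0.64 for YWHAQ, 0.18 for YWHAH, -0.90 for YWHAZ, -0.77 for SFN and -0.56 for YWHAB. The 21 and the 18 libraries are replicates within groups, so r includes differences between groups and does not rest on independent samples. The 18 include the deeper array libraries.

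**Figure D4:**
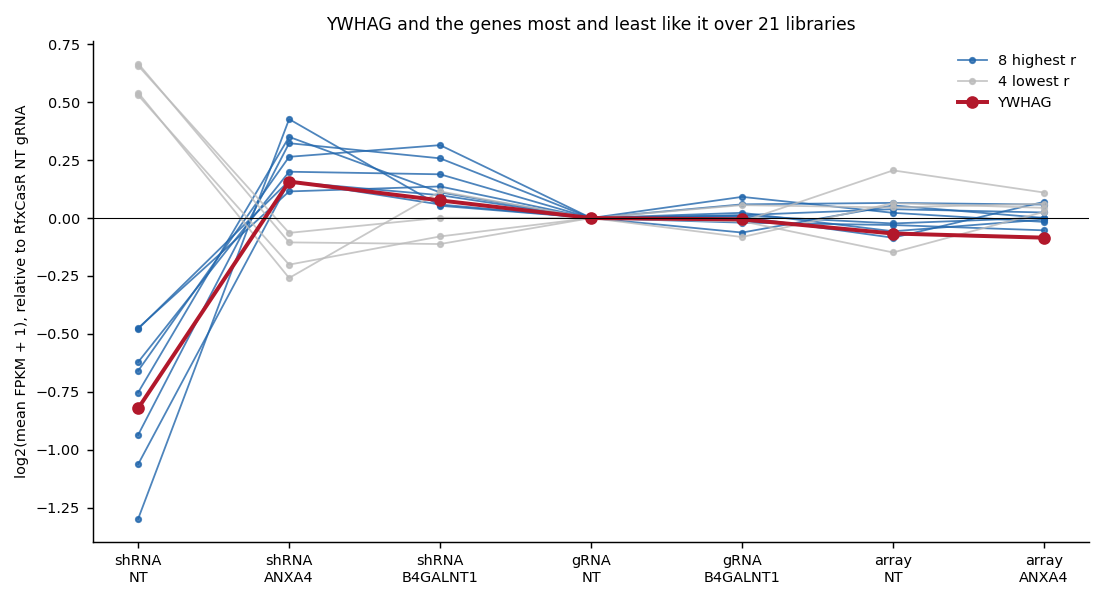
Group means relative to the RfxCasR NT gRNA group, as log2(mean FPKM + 1) (y axis), in the 7 groups (x axis), for YWHAG (red), the 8 genes with the highest r (blue) and the 4 with the lowest (grey). YWHAG and the 8 genes have their lowest point at the NT shRNA and the other 4 their highest, and the lines only join the groups of a gene.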

How the data were processed

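Messenger RNA of 21 HEK 293FT libraries was sequenced. Per the submitters' processing notes, the build was hg19 and the tools included STAR, HOMER and FastQC, with R 3.3.2 and DESeq2 1.14.1. Per the file headers, the authors deposited FPKM per gene, counted in exons on the sense strand. The authors' deposited comparison tables also hold mean normalized counts (a signal, unused), log2 fold changes and adjusted p-values.

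Genes reaching 1 FPKM in 3 or more libraries (13679 of 27142) were analysed as log2(FPKM + 1). Limma 3.58.1 in R 4.3.3 fitted the 7 groups in 1 model with an intensity trend, p-values were Benjamini-Hochberg adjusted over all genes tested within a comparison, and genes were called under 0.05. Whole reads were recovered from the FPKM values and exon lengths (100% of values of 1 to 99 reads whole within 0.1), giving 21.4 to 39.5 M reads per library, and fitted by voom as an alternative. The fit was tested on simulated data.

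Named were all members, the target genes, the neighbours of YWHAG, the 8 genes most and 4 least correlated with YWHAG, and up to 3 called partners per direction, of which some are not reported here. The members and lists were chosen with earlier results of these data known. Alternatives were another pseudocount, no filter, median centring, only the groups compared, a replicate block and leaving out each library; a model without arrays was added after seeing the data.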

Additional observations from a re-analysis of the deposited data

How the results depend on the processing

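The number of members called, counting SFN where it was tested, stayed within 1.5 times in all 9 comparisons under every alternative run. With a replicate block it was 4 in place of 3 for the B4GALNT1 shRNA against the NT gRNA (YWHAG, adjusted p = 0.0388), and the block changed no other call of a member. Deviations of same-numbered libraries correlated at -0.146 to 0.0901, and no comparison had all 3 pairs over 0.1, so the samples were not treated as paired. For B4GALNT1 gRNA and for ANXA4 shRNA against the NT gRNA, 6 of 6 libraries correlated best with their own number, a hint from the data and not the design. Replicate 3 had the lowest share of reads in genes in 7 of 7 groups. After median-ratio scaling the family total was 1249 FPKM with the NT shRNA, 1333 with the ANXA4 shRNA and 1407 with the B4GALNT1 shRNA. It was then 1400 with the NT gRNA, 1381 with the B4GALNT1 gRNA, and 1631 and 1594 under the NT and ANXA4 array labels. The NT shRNA stayed lowest, and the B4GALNT1 shRNA came above the NT gRNA, unlike before scaling. Unscaled and without YWHAG, the NT shRNA total was 1230 FPKM. The difference of SFN between the NT gRNA and the NT shRNA changed sign to 0.062 log2 with a pseudocount of 0.1, 0.038 after centring and 0.10 with voom, and YWHAE for the B4GALNT1 shRNA against the NT gRNA to 0.013 with voom. Leaving out 1 library turned the sign only of log2 differences that had not passed the test. Over these fits the values ran for the NT gRNA against the NT shRNA, YWHAB -0.0042 to 0.034, SFN -0.20 to 0.20; between the gRNAs, YWHAG -0.021 to 0.016, YWHAH -0.022 to 0.0048, SFN -0.048 to 0.11; between the array labels, YWHAB -0.012 to 0.023, YWHAE -0.033 to 0.0092, YWHAG -0.039 to 0.0052, YWHAQ -0.055 to 0.028, YWHAZ -0.049 to 0.030; for the B4GALNT1 shRNA against the NT gRNA, YWHAE -0.020 to 0.0020, YWHAQ -0.0096 to 0.025. With only the groups compared, SFN did not pass the filter in the 7 comparisons without array libraries and has no value there. The causes were not tested. Values near 1 FPKM, as for SFN, are limited by depth.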
